A study of Homo sapiens with 4 samples.

Results

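Wnt and beta-catenin pathway components were read out as a set of 39 genes, taken by name from the 58735 genes in the expression tables, with earlier results of these data known. The set holds receptors, Dishevelled adaptors, the destruction complex, beta-catenin, its TCF and LEF partners, regulators of receptor turnover and ligand secretion, feedback antagonists and target genes. All 39 names matched a gene ID through GENCODE release 29. Transcripts were sequenced in 4 libraries labelled as the liver cancer line Huh7: shNME7 1 and 2, from cells with a short hairpin RNA against NME7, and shCtrl 1 and 2, from cells with a control hairpin. The labels do not say how many hairpins were used, whether cells were pooled or clonal, or whether the replicates of a group were separate cultures, so p-values measure the spread between these libraries, which may be technical.

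Secreted Wnt proteins bind a Frizzled receptor together with LRP5 or LRP6. In the absence of Wnt, a destruction complex built on Axin and APC lets casein kinase 1 and GSK3 phosphorylate beta-catenin, which BTRC then marks for degradation. Wnt binding recruits Dishevelled and Axin to the receptors, beta-catenin escapes degradation, and it activates genes in the nucleus together with TCF and LEF factors. In liver the pathway is known for setting gene expression around the central vein, glutamine synthetase (GLUL) included, and its activation by mutations is common in liver cancer.

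Levels are given in FPKM, fragments per kilobase of exon, scaled by a factor for each library, as the authors deposited them. Each library held between 14877906 and 16991397 fragments. The total behind the scaling differed from the sum of fragments in each library, and how it was set is not given in the sources used here. NME7 stood at 0.835 and 0.626 FPKM in shNME7 1 and 2, against 3.64 and 3.93 FPKM in shCtrl 1 and 2, a ratio of means (shNME7 over shCtrl) of 0.193, so the libraries matched their labels for the targeted gene. The label Huh7 was not borne out by liver markers. Huh7 is known to make albumin and alpha-fetoprotein, yet 9 of 10 hepatocyte markers (ALB, AFP, APOA1, APOB, TTR, TF, FGB, SERPINA1 and TAT) had at most 2 fragments in any library, and CPS1 alone was well expressed, at 149 and 121 FPKM in shNME7 1 and 2 and 145 and 167 FPKM in shCtrl 1 and 2. Of 8 fibroblast markers 4 had a mean of at least 1 FPKM, among them COL3A1, at 75.1 and 76.6 FPKM in shNME7 1 and 2 and 75.8 and 66.9 FPKM in shCtrl 1 and 2, while DCN, THY1, POSTN and COL1A2 stayed below 0.1 FPKM. The summed level of the fibroblast list was 98.7 and 97.4 FPKM in the shNME7 libraries and 103 and 92.2 FPKM in the shCtrl libraries, the leukocyte list summed to at most 0.358 FPKM in any library with PTPRC and CD3E at 0, and the endothelial list to 2.87 and 3.54 FPKM in the shNME7 libraries, against 2.37 and 2.03 FPKM in the shCtrl libraries, without overlap. Of the 6 endothelial markers, CDH5 had 1.88 and 2.67 FPKM in shNME7 against 1.70 and 1.31 FPKM in shCtrl, and PECAM1 0.909 and 0.797 FPKM in shNME7 against 0.559 and 0.615 FPKM in shCtrl, while KDR and EMCN were at 0 and VWF and TEK stayed below 0.1 FPKM. The part of these genes in the results below was not tested. The values below therefore describe cells labelled Huh7 that lacked the main hepatocyte transcripts in all 4 libraries.

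The core of the pathway was transcribed in all 4 libraries while some of its classical target genes were at or near 0 fragments. With 30 of the 39 genes at a mean of at least 1 FPKM, every layer from ligand secretion to the destruction complex had expressed members. Below that mean lay FZD9, FZD10, TCF7, TCF7L1, LEF1, RNF43, LGR5, AXIN2 and NKD1, of which AXIN2, LEF1, LGR5 and NKD1 had at most 3 fragments in every library. The highest of the 30 was the transcription factor gene MYC, whose mean level exceeded 99.2% of all tested genes.

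The knockdown comparison asked which of these genes differ between shNME7 and shCtrl. The 30 genes entered limma-trend, a test on log2(FPKM + 1) fitted to the 12866 genes with a mean of at least 1 FPKM, and differences below are shNME7 minus shCtrl on that scale, which understates changes of low genes. After Benjamini-Hochberg adjustment over all tested genes 0 of the 30 passed 0.05, where the call rate over all genes was 0%. At an unadjusted p under 0.05 limma-trend counted 2 of the 30, TCF7L2 and LRP6, both lower, against 6.68% of all genes. NME7 itself had a difference of -1.47 (SE 0.17, adjusted p 0.310) in limma-trend and of -2.39 (SE 0.26, adjusted p 0.000998) in limma-voom, run on fragments recovered from the FPKM values. limma-voom passed 0 of 33 genes, with 0.106% of all genes called. At an unadjusted p under 0.05 limma-voom counted 4, namely TCF7L2, LRP6 and LGR4 lower and GLUL higher, against 7.92% of all genes.

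In bulk libraries, fewer cells of a type and less RNA per cell cannot be told apart. Without a gene past the threshold, the order of the 4 libraries describes the data. In 12 of the 30 genes (40.0%) each shNME7 library was lower than each shCtrl library, where 18.4% of all tested genes showed this, and in 4 (13.3%) each was higher, where 17.8% did. The 12 were TCF7L2, LGR4, LRP6, GSK3B, CCND1, DKK1, CSNK1A1, FZD6, FZD1, BTRC, WLS and CTNNB1, and the 4 were GLUL, FZD5, FZD7 and PORCN. The median difference over the 30 was -0.05, against 0.01 over all tested genes. With 1 library left out, the median over the 30 was -0.15 without shNME7 2 and -0.09 without shCtrl 2. It was -0.05 without shNME7 1 and -0.03 without shCtrl 1.

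**Figure D1:**
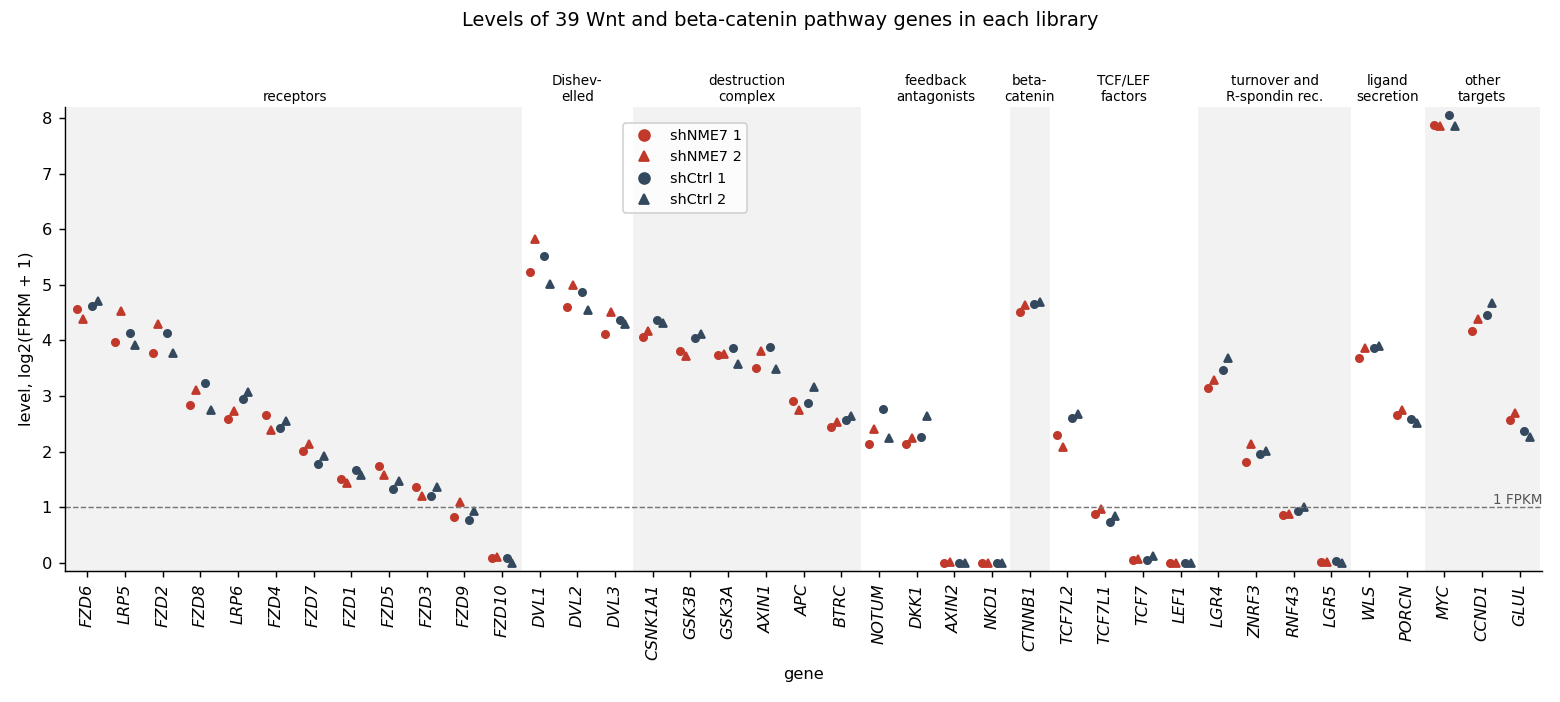
Level of each of the 39 genes, log2(FPKM + 1), by role; red marks shNME7 1 (circle) and 2 (triangle), dark marks shCtrl 1 (circle) and 2 (triangle), and the dashed line is 1 FPKM. MYC stands highest in all 4 libraries, and AXIN2, NKD1, LEF1 and LGR5 lie at or next to 0.

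Among the receptors, 8 of 10 Frizzled genes, which encode the Wnt-binding seven-pass receptors, had a mean of at least 1 FPKM. FZD6 was the highest, at 22.6 and 19.8 FPKM in shNME7 1 and 2, against 23.5 and 25 FPKM in shCtrl 1 and 2. The groups did not overlap, shNME7 being lower, with a difference of -0.18 (SE 0.14). FZD6 alone made up 40.2% and 33.2% of the summed Frizzled level in the shNME7 libraries and 38.5% and 43.7% in the shCtrl libraries. FZD2 came next, at 12.7 and 18.6 FPKM in shNME7 1 and 2 and 16.6 and 12.7 FPKM in shCtrl 1 and 2. Its libraries overlapped, and the gap between the shNME7 libraries exceeded that between the group means of 15.6 and 14.6 FPKM.

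FZD8 stood at 6.16 and 7.61 FPKM in the shNME7 libraries and 8.41 and 5.68 FPKM in the shCtrl libraries. FZD4 stood at 5.28 and 4.22 FPKM in the shNME7 libraries and 4.36 and 4.85 FPKM in the shCtrl libraries. Both overlapped between the groups. FZD4 is uncertain because PRSS23, on the opposite strand, covers 1399 of its 7383 exon bases and was itself expressed, at 9.44 to 11.7 FPKM, and the strand setting of the counting is not given in the sources used here.

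The lower Frizzled genes split in direction. FZD7 stood at 3.02 and 3.39 FPKM in shNME7 1 and 2, against 2.41 and 2.76 FPKM in shCtrl 1 and 2. FZD5 had 2.33 and 1.98 FPKM in shNME7, against 1.51 and 1.78 FPKM in shCtrl. In both genes every shNME7 library was above every shCtrl library. FZD5 had a difference of 0.25 (SE 0.17, limma-trend adjusted p 0.825), and FZD7 0.23 (SE 0.16). FZD1 lay the other way without overlap, at 1.84 and 1.70 FPKM in shNME7 and 2.17 and 1.99 FPKM in shCtrl. FZD3 had nearly equal group means, 1.42 ± 0.193 FPKM in shNME7 and 1.44 ± 0.197 FPKM in shCtrl (SD, n = 2 each). FZD9 ranged from 0.699 to 1.13 FPKM over the libraries, and FZD10 had 0 to 4 fragments.

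The co-receptor genes LRP5 and LRP6, whose products form the receptor complex with Frizzled, had differences of opposite sign, neither past the threshold. LRP6 (ENSG00000070018, chromosome 12, 12116025 to 12267012, minus strand; coordinates here and below are on GRCh38) stood at 4.98 and 5.65 FPKM in shNME7 1 and 2, against 6.72 and 7.39 FPKM in shCtrl 1 and 2. Both shNME7 libraries were the lower ones. The difference was -0.35 (SE 0.14, 95% interval -0.69 to -0.01) with an unadjusted p of 0.0452 and an adjusted p of 0.738 in limma-trend, and it was -0.22 with the GC and length trend of each library removed. LRP5 stood at 14.8 and 22.1 FPKM in shNME7 and 16.6 and 14.1 FPKM in shCtrl, so shNME7 2 was the highest and shNME7 1 lay between the shCtrl libraries. LRP5 had a difference of 0.23 (SE 0.21, adjusted p 0.839 in limma-trend), which was 0.11 with the GC and length trend removed. The level of LRP5 over that of LRP6 was 2.96 and 3.91 in the shNME7 libraries, against 2.46 and 1.91 in the shCtrl libraries. This ratio does not overlap between the groups and was examined after the values of both genes were seen. It sets a GC content of 62.4% (LRP5) over 42.6% (LRP6), and the part of GC content in it was not tested.

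The 3 Dishevelled genes, whose products relay the signal from Frizzled, were among the higher members, and each overlapped between the groups. DVL1 (ENSG00000107404, chromosome 1, 1335276 to 1349350, minus strand) stood at 36.6 and 55.7 FPKM in shNME7 1 and 2 and at 44.6 and 31.4 FPKM in shCtrl 1 and 2. The difference of 0.27 (SE 0.25, adjusted p 0.843 in limma-trend) became -0.03 without shNME7 2. DVL2 stood at 23.3 and 30.9 FPKM in shNME7 and 28.1 and 22.2 FPKM in shCtrl. DVL3 stood at 16.3 and 21.7 FPKM in shNME7 and 19.6 and 18.6 FPKM in shCtrl.

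Several of the overlapping genes shared an order of libraries, with shNME7 2 above shNME7 1 and shCtrl 1 above shCtrl 2, and this order followed GC content. Over the 30 genes the Spearman correlation of GC content with the difference shNME7 2 minus shNME7 1 was 0.69, and with shCtrl 1 minus shCtrl 2 it was 0.78. Over the 12857 tested genes with a GC value the same correlations were 0.66 and 0.64. With shNME7 minus shCtrl, the correlation was 0.51 over the 30 and 0.42 over all. These are correlations across genes that share 4 libraries. Split at a GC content of 55%, a value chosen after the pattern was seen, 10 of the 13 GC-rich members and 2 of the 17 others had that order. The share of all tested genes with this replicate order was not counted, so these counts do not set the members apart. In the 17 members below 55%, the shNME7 libraries were both the lower ones in 11, where 23.8% of all tested genes in that GC range did. Among the 13 members at or above 55% this held for 1, CCND1, against 5.57% of all tested genes in that range.

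**Figure D2:**
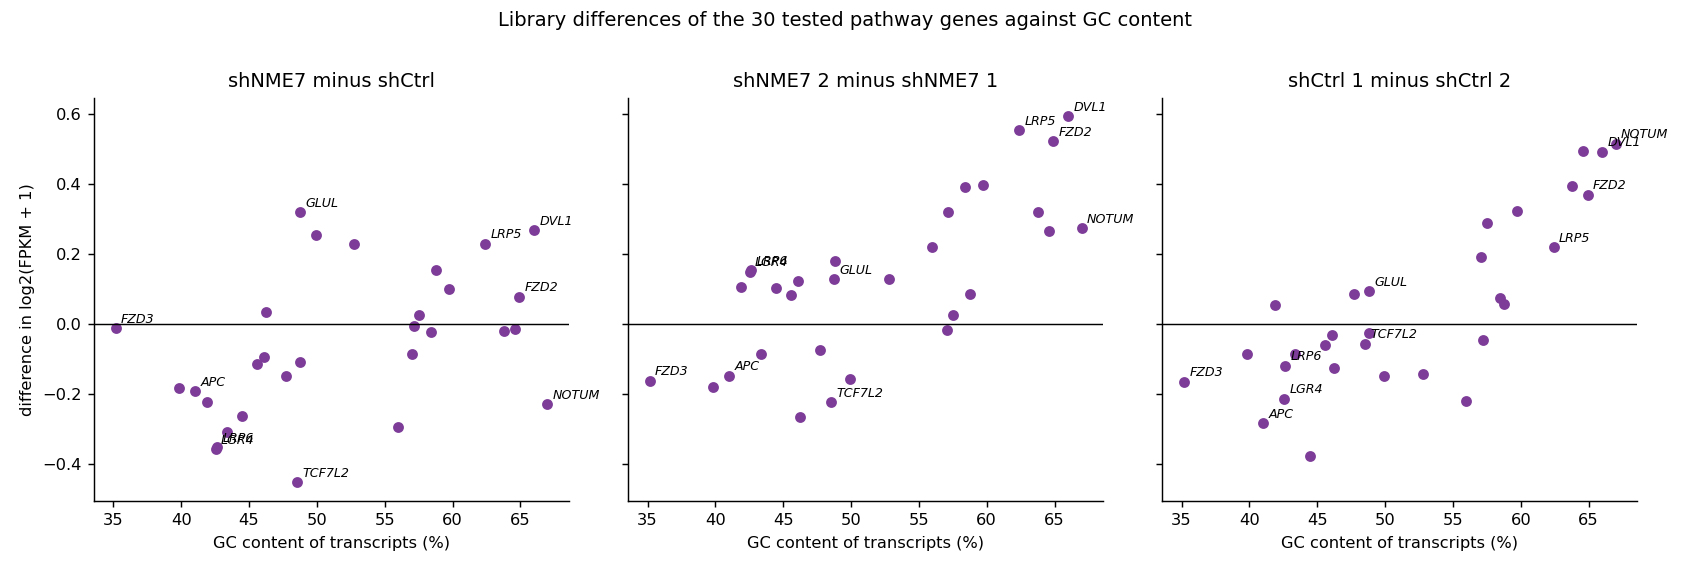
Difference in log2(FPKM + 1) against the GC content of the transcripts (%) for the 30 tested genes, each point a gene: between the groups (left), between the shNME7 libraries (middle) and between the shCtrl libraries (right). DVL1, FZD2 and NOTUM, with GC contents of 66.0%, 64.9% and 67.0%, lie high in both replicate panels, and FZD3 and APC, at 35.2% and 41.0%, lie below 0 in all 3.

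With a smooth trend on GC content and exon length removed from each library, the counts were 11 genes with both shNME7 libraries below, where 20.5% of all tested genes did, and 5 with both above, where 26.8% did. TCF7L2, LGR4, LRP6, GSK3B, CCND1 and FZD6 were in the lower set with and without the removal, and GLUL, FZD5 and FZD7 in the higher set. BTRC, CSNK1A1, CTNNB1, DKK1, FZD1 and WLS left the lower set, which AXIN1, FZD2, FZD8, MYC and NOTUM joined. PORCN left the higher set, which FZD3 and FZD4 joined. In limma-voom with the trend removed 0 of 33 members passed, at 0.0861% of all genes called, and 5 had an unadjusted p under 0.05, against 13.5% of all genes. These were TCF7L2, NOTUM and CCND1, lower, and GLUL and FZD5, higher. LRP6 and LGR4 no longer had one, with unadjusted p-values of 0.118 and 0.110 in limma-voom.

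**Figure D3:**
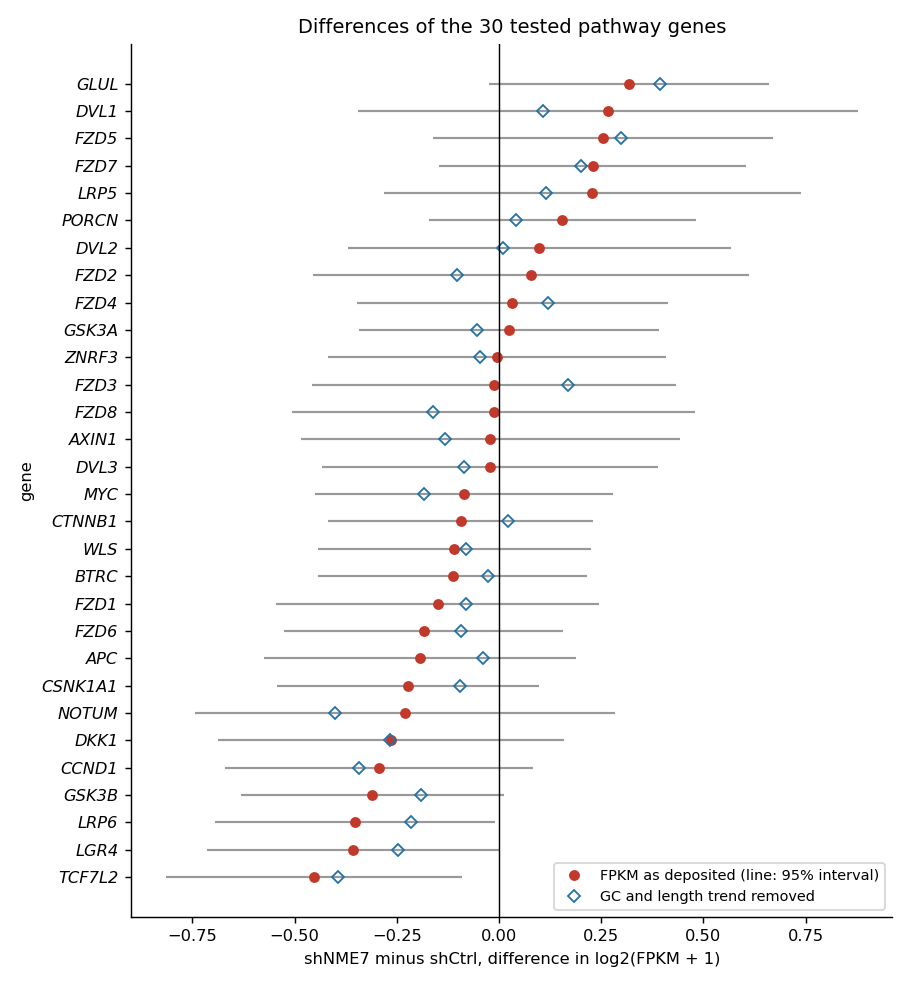
Difference shNME7 minus shCtrl in log2(FPKM + 1) for each of the 30 tested genes, with red points and lines for the deposited FPKM values and their 95% interval in limma-trend, and open diamonds for values with the GC and length trend removed. TCF7L2 is lowest at -0.45 and GLUL highest at 0.32, and the interval excludes 0 for TCF7L2 and LRP6 before any adjustment.

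Of the 6 destruction complex genes, 5 had a lower mean in shNME7, where 6154 of the 12866 tested genes had one. In 3 of the 6, GSK3B, CSNK1A1 and BTRC, each shNME7 library was the lower, against 18.4% of all tested genes. These 3 had GC contents below 55%, a range in which 23.8% of tested genes had that order. With the GC and length trend removed, GSK3B and AXIN1 were the genes of the 6 with it. GSK3B (ENSG00000082701, chromosome 3, 119821323 to 120094417, minus strand), a kinase that phosphorylates beta-catenin, stood at 13.04 and 12.23 FPKM in shNME7 1 and 2, against 15.4 and 16.4 FPKM in shCtrl 1 and 2. The difference was -0.31 (SE 0.13, adjusted p 0.754 in limma-trend), and the trend removal left -0.19. GSK3A, which encodes the related kinase, had 12.3 and 12.5 FPKM in shNME7 and 13.6 and 10.9 FPKM in shCtrl, a difference of 0.02 (SE 0.15, 95% interval -0.34 to 0.39). The shNME7 libraries of GSK3A lay between those of shCtrl.

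CSNK1A1 encodes casein kinase 1 alpha, the priming kinase for beta-catenin. It stood at 15.8 and 17.0 FPKM in shNME7 1 and 2, against 19.6 and 18.9 FPKM in shCtrl 1 and 2, with no overlap. Its value is uncertain because the transcript AC021078.1 on the same strand shares 2886 of its 7714 exon bases and stood at 1.96 to 3.07 FPKM, while the retrogene CSNK1A1L had 0 fragments and the pseudogene CSNK1A1P1 at most 4. BTRC, the substrate receptor of the ubiquitin ligase that marks beta-catenin, stood at 4.45 and 4.77 FPKM in shNME7 and 4.94 and 5.19 FPKM in shCtrl. APC stood at 6.47 and 5.74 FPKM in shNME7 and 6.34 and 7.94 FPKM in shCtrl, and the scaffold gene AXIN1 at 10.3 and 13.1 FPKM in shNME7 and 13.7 and 10.2 FPKM in shCtrl. Both overlapped.

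CTNNB1 (ENSG00000168036, chromosome 3, 41194741 to 41260096, plus strand), the beta-catenin gene, was among the most even members. It stood at 21.9 and 24.0 FPKM in shNME7 1 and 2 and at 24.2 and 24.8 FPKM in shCtrl 1 and 2. The groups did not overlap, but the closest libraries differed by less than the shNME7 libraries did from each other. Its difference of -0.09 (SE 0.13, 95% interval -0.42 to 0.23, adjusted p 0.890 in limma-trend) became 0.02 with the GC and length trend removed. These are transcript levels, and beta-catenin is regulated mainly through protein stability, which was not measured.

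TCF7L2 held most of the TCF and LEF transcripts and had the largest difference in size of the 30 genes. Its product, with beta-catenin bound, activates Wnt target genes. TCF7L2 (ENSG00000148737, chromosome 10, 112950250 to 113167678, plus strand) stood at 3.91 and 3.21 FPKM in shNME7 1 and 2, against 5.10 and 5.35 FPKM in shCtrl 1 and 2. The means were 3.56 ± 0.498 FPKM in shNME7 and 5.23 ± 0.173 FPKM in shCtrl (SD, n = 2 each), and the groups did not overlap. The difference was -0.45 (SE 0.15, 95% interval -0.82 to -0.09), with an unadjusted p of 0.0218 and an adjusted p of 0.728 in limma-trend. limma-voom gave -0.56 (SE 0.19, adjusted p 0.494). Over 17 alternatives the value ran from -0.70 to -0.34 and the adjusted p from 0.0706 to 1.00.

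The other TCF and LEF genes were low. TCF7L1, a mostly repressive family member, stood at 0.829 and 0.960 FPKM in shNME7 1 and 2, against 0.655 and 0.787 FPKM in shCtrl 1 and 2. Both shNME7 libraries were above both shCtrl libraries, opposite in direction to TCF7L2, and limma-voom gave TCF7L1 a difference of 0.32 (SE 0.32, adjusted p 0.824). TCF7 had 5 to 13 fragments per library. LEF1 had 0 fragments in all 4 libraries. The limit that a count of 0 allows, 3 fragments, is at most 0.0372 FPKM for LEF1 and covers counting error only. The share of TCF7L2 in the summed TCF and LEF level was 81.9% and 76.2% in the shNME7 libraries, against 88.1% and 86.1% in the shCtrl libraries. This share follows from the values of TCF7L2 and TCF7L1 given above and is not a separate result. It sets a GC content of 48.5% (TCF7L2) against 57.7% (TCF7L1), and the part of GC content in it was not tested.

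**Figure D4:**
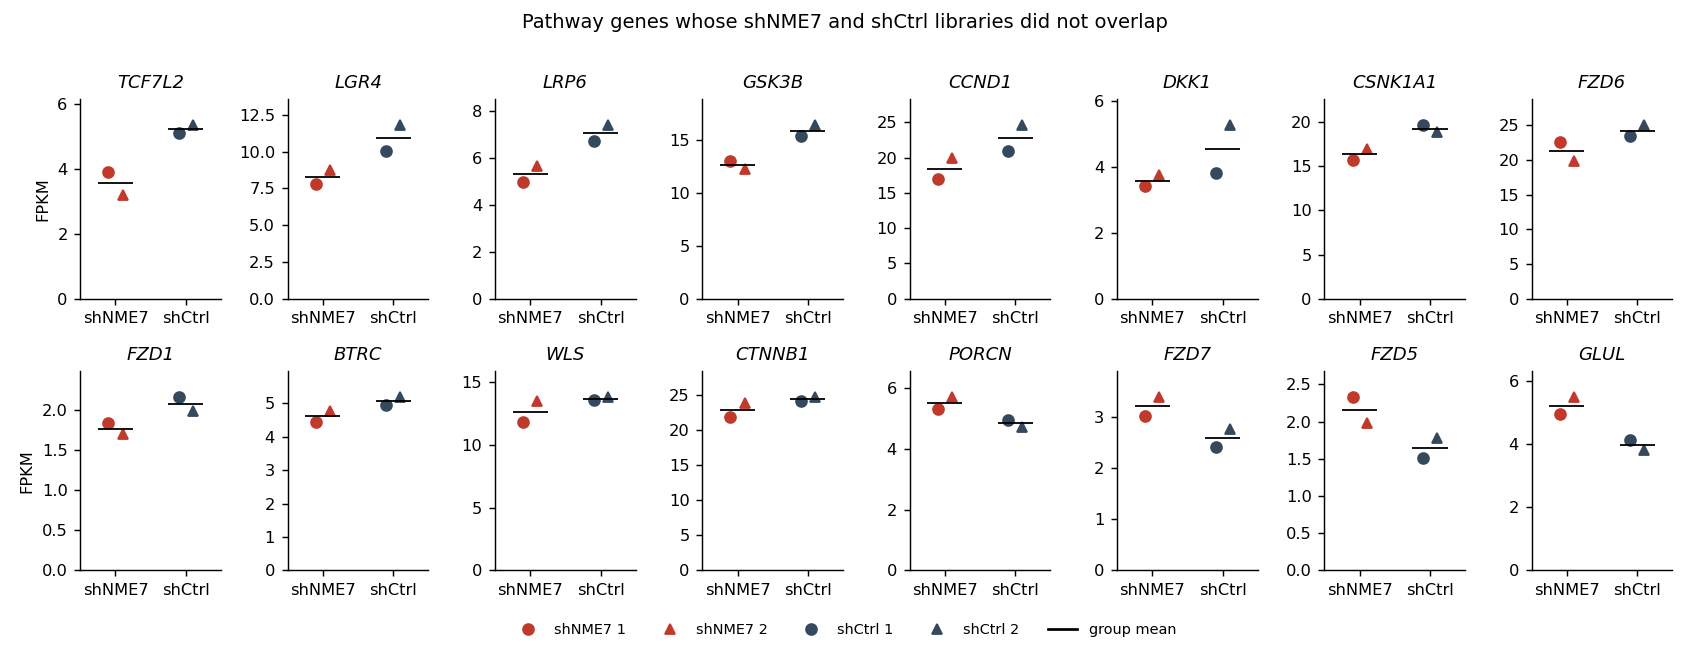
FPKM in each library (red, shNME7; dark, shCtrl; circles replicate 1, triangles replicate 2; bars, group means) for the 16 tested genes without overlap between the groups, the 12 lower genes first. The gap is wide for TCF7L2, LRP6, LGR4 and GSK3B, and narrow for WLS, BTRC and CTNNB1.

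Receptor turnover is set by the ubiquitin ligases RNF43 and ZNRF3, which remove Frizzled from the cell surface, and by LGR receptors, which bind R-spondins and hold these ligases back. LGR4 (ENSG00000205213, chromosome 11, 27365961 to 27472775, minus strand) was the expressed LGR gene, at 7.80 and 8.76 FPKM in shNME7 1 and 2, against 10.02 and 11.78 FPKM in shCtrl 1 and 2. The shNME7 libraries were the lower ones, with a difference of -0.36 (SE 0.15, adjusted p 0.746 in limma-trend) that ran from -0.51 to -0.25 over 17 alternatives. LGR5 had 0 to 2 fragments. ZNRF3 had means of 2.97 ± 0.619 FPKM in shNME7 and 2.96 ± 0.0920 FPKM in shCtrl (SD, n = 2 each). RNF43 was lower than ZNRF3 in every library, at 0.816 and 0.824 FPKM in shNME7 and 0.904 and 0.9996 FPKM in shCtrl. RNF43 is uncertain, since AC004687.2 on the same strand, at no more than 0.0851 FPKM, shares 4326 of its exon bases (57.6%).

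Both genes for Wnt secretion were expressed. WLS, the carrier that brings Wnt proteins to the cell surface, stood at 11.8 and 13.5 FPKM in shNME7 1 and 2 and at 13.6 and 13.8 FPKM in shCtrl 1 and 2. PORCN, the acyltransferase that attaches a lipid to Wnt proteins, stood at 5.33 and 5.71 FPKM in shNME7 and 4.97 and 4.74 FPKM in shCtrl. Neither overlapped, WLS being lower and PORCN higher in shNME7, with differences of -0.11 (SE 0.14) and 0.16 (SE 0.14).

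The feedback antagonists, which Wnt signalling itself induces in many tissues, were split between expressed and undetected genes. DKK1 (ENSG00000107984, chromosome 10, 52314296 to 52318042, plus strand), a secreted blocker of LRP5 and LRP6, stood at 3.41 and 3.74 FPKM in shNME7 1 and 2, against 3.82 and 5.26 FPKM in shCtrl 1 and 2. The groups did not overlap, but shCtrl 1 lay closer to the shNME7 libraries than to shCtrl 2. Its difference was -0.26 (SE 0.18, adjusted p 0.820 in limma-trend), and it was -0.08 without shCtrl 2 and -0.45 without shCtrl 1. NOTUM (ENSG00000185269, chromosome 17, 81952507 to 81961840, minus strand), a secreted enzyme that removes the lipid from Wnt proteins, stood at 3.39 and 4.31 FPKM in shNME7 and 5.77 and 3.74 FPKM in shCtrl. The libraries of NOTUM overlapped, with a difference of -0.23 (SE 0.21, adjusted p 0.841) that became 0.03 without shCtrl 1 and -0.40 with the GC and length trend removed.

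AXIN2, which encodes an Axin that limits the signal and is widely used as a readout of it, had 0 and 1 fragments in shNME7 1 and 2 and 0 in both shCtrl libraries. AC004805.1, with 0 FPKM in each library, shares 1316 of the AXIN2 exon bases (25.2%) on the same strand, and how shared fragments were counted is not given. NKD1, an inhibitor that acts on Dishevelled, had 0 fragments in all 4 libraries, which allows up to 0.0115 FPKM. No fold is given for either.

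Of the target genes, MYC, at 235 and 232 FPKM in shNME7 1 and 2 and 265 and 232 FPKM in shCtrl 1 and 2, overlapped between the groups. Its difference was -0.09 (SE 0.15, 95% interval -0.45 to 0.28, adjusted p 0.907 in limma-trend), and without shCtrl 1 it was 0.01. CCND1 (ENSG00000110092, chromosome 11, 69641087 to 69654474, plus strand), which encodes cyclin D1 of the G1 phase, stood at 16.9 and 19.9 FPKM in shNME7 and 21.0 and 24.6 FPKM in shCtrl. Its groups did not overlap, and the difference was -0.29 (SE 0.16, adjusted p 0.795 in limma-trend). It was -0.18 without shNME7 1 and also without shCtrl 2, and -0.34 with the trend removed. LTO1, on the opposite strand, covers 497 of its 4830 exon bases at 2.36 to 2.98 FPKM.

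GLUL (ENSG00000135821, chromosome 1, 182381704 to 182392206, minus strand), the glutamine synthetase gene that marks Wnt-active hepatocytes in liver, had the largest positive difference of the 30. It stood at 4.94 and 5.50 FPKM in shNME7 1 and 2, against 4.15 and 3.82 FPKM in shCtrl 1 and 2. Both shNME7 libraries were the higher ones, as in 17.8% of all tested genes. CCND1, DKK1 and TCF7L2 lay the other way, MYC and NOTUM overlapped, and none of these genes passed the threshold. The difference of GLUL was 0.32 (SE 0.14, 95% interval -0.02 to 0.66, adjusted p 0.773) in limma-trend and 0.39 (SE 0.18, adjusted p 0.617) in limma-voom. Over 17 alternatives it ran from 0.25 to 0.48. The 4 GLUL pseudogenes GLULP3 to GLULP6 had 0 fragments in each library.

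Promoter windows of 300 bases, from 250 before to 50 after a transcript start (RefSeq, GRCh38.p14), were given for 25 of the 39 genes, with 34 starts. They were searched on both strands for CTTTGA, the core of the TCF and LEF binding site. It occurred in 3 of the 34 windows, those of DKK1, CSNK1A1 and PORCN, against 12.9% of all 35116 windows, and the longer form CTTTGAT in 0 of 34, against 2.62% of all. DKK1 is shown for its 2 copies of the core, and TCF7L2 (its first listed start of 3) and GLUL (first of 2) as the genes furthest down and up. Each is printed 5′ to 3′ on the strand of the gene. Capitals mark CTTTGA or its reverse complement TCAAAG, and the TATA box letters TATAAA, which 7.33% of all windows hold on the given strand.
DKK1, chr10:52314031-52314330, plus strand: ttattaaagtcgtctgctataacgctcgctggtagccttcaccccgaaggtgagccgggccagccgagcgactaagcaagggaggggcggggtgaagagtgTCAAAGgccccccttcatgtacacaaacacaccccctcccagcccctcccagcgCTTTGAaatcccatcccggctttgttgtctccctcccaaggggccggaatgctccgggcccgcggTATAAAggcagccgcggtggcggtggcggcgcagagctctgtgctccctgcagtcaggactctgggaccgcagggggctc
TCF7L2, chr10:112949997-112950296, plus strand: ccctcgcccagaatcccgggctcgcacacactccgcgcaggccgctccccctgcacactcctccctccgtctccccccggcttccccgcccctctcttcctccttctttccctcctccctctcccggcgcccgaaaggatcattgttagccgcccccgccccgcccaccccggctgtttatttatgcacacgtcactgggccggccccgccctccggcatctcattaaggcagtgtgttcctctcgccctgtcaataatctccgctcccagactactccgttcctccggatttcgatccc
GLUL, chr1:182391741-182392040, minus strand: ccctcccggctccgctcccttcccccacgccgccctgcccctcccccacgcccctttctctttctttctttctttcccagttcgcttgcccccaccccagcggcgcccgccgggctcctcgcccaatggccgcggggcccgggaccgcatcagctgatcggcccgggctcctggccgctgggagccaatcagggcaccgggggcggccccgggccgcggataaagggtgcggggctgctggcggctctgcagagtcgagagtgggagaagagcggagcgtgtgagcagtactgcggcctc

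In DKK1 the cores began 149 and 95 bases before the transcript start and the TATA box letters 30 bases before it. The TCF7L2 and GLUL windows held neither, and had GC contents of 65.7% and 72.7%. A match of letters is a description and not evidence of binding, and the expression tables do not show which start a transcript used.

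A further 107 genes of the pathway, in 7 lists from ligands to targets, were examined beside the 39. Over the 58 of the 107 that were tested, limma-trend passed 0 in either direction, and limma-voom passed 0 of 69. At an unadjusted p under 0.05, limma-trend counted 2 of 58 (3.45%, against 6.68% of all genes), MET and CSNK1G3. limma-voom counted 5 of 69 (7.25%, against 7.92% of all genes), these 2 with SIAH1, CREBBP and TNKS. All were lower, and they are named after their values were seen. The median difference over the 58 was -0.01, against 0.01 over all tested genes. Of the 58, 15 (25.9%) had both shNME7 libraries below, against 18.4% of all tested genes, and 7 (12.1%) both above, against 17.8%.

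Of 19 Wnt ligand genes 6 had a mean of at least 1 FPKM. WNT5A, a ligand known mainly for signalling without beta-catenin, was the highest, at 18.7 and 17.8 FPKM in shNME7 1 and 2, against 15.1 and 15.7 FPKM in shCtrl 1 and 2. Both shNME7 libraries were above both shCtrl libraries, with a difference of 0.23 (SE 0.13, adjusted p 0.795 in limma-trend). WNT7B stood at 10.6 and 14.7 FPKM in shNME7 and 10.7 and 9.24 FPKM in shCtrl, overlapping. The other 4 were WNT10B, WNT3, WNT6 and WNT9A, while WNT1, WNT8A and WNT9B had 0 fragments in all libraries. Of the 6 expressed ligand genes, 5 averaged higher under the knockdown and 1, WNT3, averaged lower. Over all 12866 tested genes, 6712 averaged higher. These 6 ligand genes had a median GC content of 60.2%. With the GC and length trend removed, WNT5A, WNT7B and WNT10B remained higher, at 0.33, 0.16 and 0.15. WNT6 and WNT9A turned to -0.03 each, and WNT3 stood at -0.20. The ligand list summed to 45.3 and 55.3 FPKM in the shNME7 libraries, against 43.1 and 41.2 FPKM in the shCtrl libraries. The part of GC content in this sum was not tested.

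Among 13 secreted antagonists and their receptors 1 was tested, the DKK1 receptor gene KREMEN2, at 4.28 and 6.15 FPKM in shNME7 1 and 2 and 4.62 and 3.37 FPKM in shCtrl 1 and 2. DKK3 ranged from 0.833 to 1.11 FPKM, and 10 of the 13 had at most 3 fragments in every library, the SFRP genes on the list among them. RSPO3, which encodes a ligand of LGR receptors, was expressed without overlap, at 2.41 and 2.11 FPKM in shNME7 and 1.52 and 1.64 FPKM in shCtrl. Its difference was 0.34 (SE 0.17, adjusted p 0.795 in limma-trend), higher in shNME7, opposite in direction to that of the receptor gene LGR4. The other 3 R-spondin genes had 0 fragments.

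**Figure D5:**
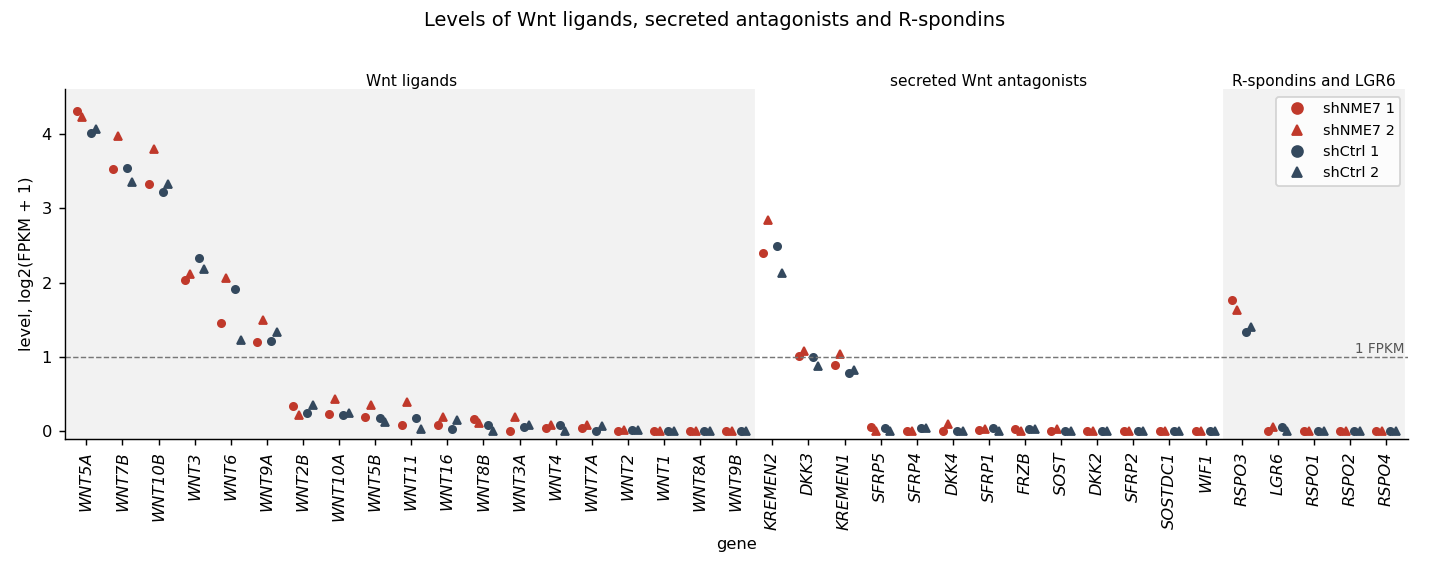
Level, log2(FPKM + 1), of 19 Wnt ligand genes, 13 secreted antagonists and their receptors, and the R-spondin genes with LGR6, in each library (red, shNME7 1 and 2; dark, shCtrl 1 and 2; circles replicate 1, triangles replicate 2; dashed line, 1 FPKM). WNT5A is the highest ligand, and 6 ligand genes, KREMEN2 and RSPO3 have a mean above 1 FPKM.

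The further Wnt target genes divided much as the feedback antagonists did. Of 22, 8 were tested and 9 had at most 3 fragments in every library, among them the pericentral liver genes CYP1A2, LECT2, RHBG and SLC1A2, while CYP2E1 had 0 to 5 fragments. OAT, a pericentral gene named after its values were seen, was expressed, at 35.7 and 28.6 FPKM in shNME7 1 and 2, against 23.7 and 28.1 FPKM in shCtrl 1 and 2, without overlap (difference 0.30, SE 0.17, adjusted p 0.795 in limma-trend). The shNME7 2 library lay closer to shCtrl 2 than to shNME7 1. Of the 8 tested, 1 (12.5%) had both shNME7 libraries above, against 17.8% of all tested genes. BIRC5, which encodes survivin, was the highest, at 38.4 and 40.8 FPKM in shNME7 1 and 2 and 39.7 and 33.7 FPKM in shCtrl 1 and 2, followed by the adhesion receptor gene CD44, at 37.5 and 34.7 FPKM in shNME7 and 34.8 and 38.7 FPKM in shCtrl. Both overlapped. MET, the hepatocyte growth factor receptor gene, stood at 29.9 and 28.9 FPKM in shNME7, against 39.7 and 43.3 FPKM in shCtrl. Its difference of -0.48 (SE 0.14, unadjusted p 0.0107, adjusted p 0.687 in limma-trend) was larger in size than the -0.45 of TCF7L2 on that scale, and the order turned in limma-voom, at -0.50 for MET and -0.56 for TCF7L2.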

How the data were processed

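The tables the authors deposited hold FPKM values per gene, per the file headers, with 1 library in each. The submitters' processing notes name HISAT2 2.0.5 and the build hg18. How fragments were counted, with which annotation and strand setting, is not given in the sources used here. GENCODE release 29 holds each of the 58735 gene IDs and gave names, GRCh38 coordinates, exon lengths and transcript GC content. FPKM times exon length gave whole multiples of a step per library (100% of values above 0 within 0.01), so fragments were recovered. The gene IDs and exon lengths behind the values thus match release 29 on GRCh38, while the notes name hg18.

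limma-trend (limma 3.58.1, R 4.3.3) was run on log2(FPKM + 1) for genes with a mean of at least 1 FPKM, fitting the group alone, and adjusted by Benjamini-Hochberg over all tested genes. Alternatives were a pseudocount of 0.1, no filter, the replicate number as a block, TPM and quantile scaling, loess removal of GC and exon-length trends (span 0.3), limma-voom on recovered fragments (mean of at least 10), and each library left out. Full statistics were given for the 10 members with the largest differences, CTNNB1, MYC, CCND1 and NME7, and of each further list the 2 genes with the highest level were named. Members, lists and tests were chosen with earlier results of these data known.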

Additional observations from a re-analysis of the deposited data

How the results depend on the processing

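In each of 17 alternatives 0 of the members it tested, 30 to 37 of the 39, passed 0.05. The number of all genes past it, 0 in limma-trend, was 122 with the replicate block, 16 in limma-voom, 34 in limma-voom with the replicate block and 13 in limma-voom after GC and length trend removal, and the cause was not tested. With 1 library left out it was 112 to 632 in limma-trend, while limma-voom gave 28, 39, 41 and 430 (without shCtrl 2, shCtrl 1, shNME7 2 and shNME7 1), where the lone library of a group is assumed to vary like the other group. Same-numbered libraries deviated in opposite directions (correlation -0.35 over 12866 genes), and a crossed pairing, chosen after seeing the data, passed 0 genes in limma-trend and 1281 in limma-voom, 6 of them members.

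The median difference over members ran from -0.15 to -0.030 in limma-trend and from -0.16 to -0.03 in limma-voom over the fits that left out a library, both lowest without shNME7 2. The median over all genes was -0.03 in TPM, against 0.01 as deposited, and that over members -0.10. Signs turned for DVL1 (-0.029 without shNME7 2 in limma-trend, up to 0.56 without shNME7 1, and -0.030 without shNME7 2 in limma-voom), NOTUM (0.028 without shCtrl 1, -0.49 without shCtrl 2, and 0.037 without shCtrl 1 in limma-voom) and MYC (0.0094 without shCtrl 1 in both tests, -0.18 without shCtrl 2). CTNNB1 turned when the GC and length trend was taken out, to 0.023 (limma-trend) and 0.051 (limma-voom). TCF7L2, LGR4, LRP6, GSK3B, CCND1, DKK1, FZD5 and GLUL kept their sign in all 17. NME7 stayed lower in all 17 and passed in 12. With 2 libraries a group, and 113 to 187 fragments per library for DKK1, the unadjusted 95% interval in limma-trend held 0 for every tested member except TCF7L2 and LRP6.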

Other observations

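Genes around the destruction complex and in the nucleus were expressed throughout. All 17 further destruction complex genes were tested, with a median GC content of 45.0%. Of these, 13 were lower on average in shNME7, where 6154 of the 12866 tested genes were. In 6 of them the groups did not overlap in that direction, where 18.4% of all tested genes did so. That share was 23.8% at a GC content below 55% and 5.57% at or above it. With the GC and length trend removed, CSNK1G1, FBXW11, TNKS2 and PPP2CA turned to 0.05, 0.004, 0.02 and 0.05. The rest of the 13 stayed lower. The highest of the 17 in level were the phosphatase 2A subunit genes PPP2R1A and PPP2CA, both overlapping. PPP2R1A stood at 36.1 and 43.2 FPKM in shNME7 1 and 2 and 43.5 and 36.1 FPKM in shCtrl 1 and 2. PPP2CA stood at 31.0 and 24.8 FPKM in shNME7 and 27.2 and 30.7 FPKM in shCtrl. CSNK1G3, a casein kinase 1 gamma gene named after its values were seen, stood at 10.2 and 8.23 FPKM in shNME7 and 12.2 and 13.2 FPKM in shCtrl, with a difference of -0.43 (SE 0.15, limma-trend adjusted p 0.728).

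Of 16 beta-catenin cofactor genes 15 were tested, 8 with a higher and 7 with a lower mean in shNME7. PYGO2, which links beta-catenin to chromatin, stood at 23.7 and 23.9 FPKM in shNME7 and 25.6 and 26.2 FPKM in shCtrl, without overlap. SMARCA4, a chromatin remodelling ATPase gene, stood at 13.8 and 17.7 FPKM in shNME7 and 16.3 and 14.9 FPKM in shCtrl.

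Of 15 genes of planar polarity and other Wnt receptors, 10 were tested, 6 with a higher and 4 with a lower mean in shNME7. The GTPase genes RHOA and RAC1 were the highest. RHOA stood at 183 and 156 FPKM in shNME7 and 172 and 194 FPKM in shCtrl, overlapping, and RAC1 at 70.4 and 62.7 FPKM in shNME7 and 72.0 and 72.3 FPKM in shCtrl, without overlap.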
